A study of Mus musculus with 9 samples.

Results

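The tumour suppressor p53 is a transcription factor that is held at a low level by the ubiquitin ligase Mdm2 and accumulates after DNA damage and other stresses. It then raises the transcripts of genes that stop the cell cycle, repair DNA or release cytochrome c from mitochondria, and the last of these steps starts caspase-driven apoptosis. Neurons of the retina are postmitotic at the age studied here, and photoreceptor loss in the adult retina is often accompanied by apoptosis. The 10 genes described here are textbook p53 targets of these branches: Cdkn1a and Ccng1 of cell cycle control, Mdm2 of feedback on p53, Bbc3, Bax and Pmaip1 of the BCL2 family, Trp53inp1, Phlda3 and Eda2r as other pro-death genes, and Sesn2 of metabolic stress. They were taken by gene symbol from the 55487 genes of the deposited expression table, each matched exactly 1 row, and all 10 were among the 21330 genes with at least 0.5 CPM (reads on a gene scaled to a common library total, as deposited) in at least 3 of the 9 libraries, which were tested. Eda2r reached that level only in replicate 2 of tHet and replicates 1 and 2 of Tet tcKO, so its passage rested on the libraries in which it was high.

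Whole retinas of C57 BL/6J mice at postnatal day 21 were profiled by bulk RNA-seq in 3 genotypes with 3 libraries each, and each library pooled the retinas of 2 animals. Cre- retinas carried no Cre transgene. The tHet retinas carried the Chx10::Cre-GFP transgene, which drives Cre in retinal progenitor cells, and 1 floxed allele each of Tet1, Tet2 and Tet3, the genes of the TET dioxygenases that oxidise methylated cytosine. Tet tcKO retinas carried the same transgene with both alleles of all 3 genes floxed. The transgene is mosaic, and Cre-positive breeders were crossed with each other to raise its dose, whereas the Cre- mice came from separate Cre-negative breeders, so a difference between Cre- and either other genotype cannot be told apart from a difference between breeding lines. Each library was taken as a separate pool of animals, although the paper states independent animals for its cell counts and not for these libraries. Nothing in the sources used here ties the replicate numbers of different genotypes to each other. Libraries held 9627927 to 21108256 reads on genes, and 1 read was worth 0.0474 to 0.104 CPM. Replicate 3 of Tet tcKO stood apart because 28.7% of its reads fell on the ribosomal RNA gene CT010467.1, against 0.0409% to 3.72% in the other libraries, which lowers the CPM of every other gene in that library. Tet3 fell from 235 ± 29.2 CPM (SD, n = 3) in Cre- to 120 ± 28.2 CPM in Tet tcKO (limma adjusted p = 0.0174), whereas the libraries of Tet1 and Tet2 overlapped between these genotypes. The table counts reads over whole genes, so exons outside the floxed ones still contribute.

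The promoters are shown first, because p53 binding is what ties these genes together. RefSeq promoters of the GRCm38.p6 assembly, 250 bases before to 50 bases after each start, were matched for 8 of the 10 genes, with 11 starts in all, and Trp53inp1 and Pmaip1 had no match. The p53 decamer, the palindromic unit that is repeated in a p53 response element, was searched as an exact match and reads the same on both strands. It was found in 4 of the 11 promoters, and in 8.36% of all 32851 promoters of the same length. A single decamer is only part of a response element. The 4 belonged to Ccng1 (185 bases before the start), Mdm2 (186 bases before), Bax (201 bases before) and the upstream start of Cdkn1a (73 and 51 bases before). The following stretches hold those decamers in capitals, written 5′ to 3′ on the strand of the gene and ending before its first annotated exon or shortly after the decamer.

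Ccng1 (chr11:40755312-40755536, minus strand): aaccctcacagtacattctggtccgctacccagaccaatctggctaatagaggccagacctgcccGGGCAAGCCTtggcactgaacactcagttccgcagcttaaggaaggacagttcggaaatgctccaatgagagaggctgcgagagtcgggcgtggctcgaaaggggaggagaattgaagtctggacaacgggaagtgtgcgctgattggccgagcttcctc
Cdkn1a (chr17:29090729-29090975, plus strand): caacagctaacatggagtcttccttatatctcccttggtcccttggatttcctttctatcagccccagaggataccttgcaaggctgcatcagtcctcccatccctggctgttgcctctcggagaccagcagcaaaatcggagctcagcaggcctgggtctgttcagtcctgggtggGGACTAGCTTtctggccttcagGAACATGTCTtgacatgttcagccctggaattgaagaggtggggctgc
Mdm2 (chr10:117710925-117710954, minus strand): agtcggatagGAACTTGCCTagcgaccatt
Bax (chr7:45467080-45467109, minus strand): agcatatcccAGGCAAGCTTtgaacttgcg

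An exact search of 300 bases cannot exclude a p53 site with mismatches or outside them. None of the 3 Bbc3 promoters held the decamer. The most upstream of them is shown because Bbc3 had the largest log2FC of the 10 genes against both other genotypes on the log2(CPM + 0.5) scale of the fit, and it lies between the first and second exon of a longer annotated Bbc3 transcript. The 300-base Bbc3 promoters held 34, 30 and 39 CpG dinucleotides, the sites at which TET enzymes act, against a median of 7 over all promoters. High counts were not particular to Bbc3, since Mdm2 had 35, Phlda3 26, Sesn2 23, Bax 19 and Ccng1 14, Cdkn1a 2 and 23 at its upstream and downstream start, and Eda2r 5. Methylation at these sites was not analysed here.

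Bbc3 (chr7:16309333-16309582, plus strand): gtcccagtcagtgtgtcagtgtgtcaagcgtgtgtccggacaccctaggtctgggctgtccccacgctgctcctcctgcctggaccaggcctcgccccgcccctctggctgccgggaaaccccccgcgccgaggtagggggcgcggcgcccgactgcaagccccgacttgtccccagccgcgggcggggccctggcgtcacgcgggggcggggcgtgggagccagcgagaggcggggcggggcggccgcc

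The genes differed widely in level. Per kilobase of annotated exon, and averaged over the 9 libraries, Ccng1 reached 21.3 CPM, which lay above 92.3% of the tested genes. Mdm2 followed with 12.7 CPM per kilobase and Trp53inp1 with 5.96 CPM per kilobase, both above the median of 2.6 CPM per kilobase over the tested genes. Bax (1.97 CPM per kilobase) and Sesn2 (1.9 CPM per kilobase) stood next to each other in that order, and their values overlapped across libraries in each genotype. Phlda3 reached 1.34 CPM per kilobase and Bbc3 1.17 CPM per kilobase. Pmaip1 and Cdkn1a were lower, at 0.533 and 0.448 CPM per kilobase. Eda2r was last with 0.0684 CPM per kilobase, below all but 0.251% of the tested genes. Ccng1, Mdm2 and Trp53inp1 were each read from at least 470 reads per library, Sesn2 from 64 to 150 reads and Bax from 24 to 61 reads. Bbc3, Cdkn1a, Phlda3, Pmaip1 and Eda2r rested on 0 to 91 reads per library, so their values carry the widest counting error.

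None of the 10 genes was called in Tet tcKO against Cre- (a fold change of 2 or more either way, which is 1 on the log2FC scale, together with a limma adjusted p under 0.01), where 3.6% of the tested genes were called. None passed an adjusted p under 0.05 alone either, against 6.5% of the tested genes. At an unadjusted p under 0.05, 3 of the 10 passed (Bbc3 and Eda2r higher, Ccng1 lower), against 16.1% of the tested genes. Eda2r entered the test only through the libraries in which it was high, so its passing cannot be counted as support for a change. DESeq2 on the recovered reads put 2 of the 10 (Bbc3 and Ccng1) past an adjusted p under 0.05, against 11.6% of all genes it tested, and edgeR put 0 past it, against 8.99%. Against tHet, 0 of the 10 were called by limma and 3% of the tested genes were. None passed an adjusted p under 0.05, against 5.95% of the tested genes, and 1 (Bbc3) passed an unadjusted p under 0.05, against 17.5%. In tHet against Cre-, 0 of the 10 were called and 0.0422% of the tested genes were, and 0 of the 10 passed an adjusted p under 0.05, against 0.0938%. Past an unadjusted p under 0.05 there was 1 gene (Ccng1), against 4.55% of the tested genes. The 3 comparisons share libraries in pairs and are not independent of each other. In bulk tissue, fewer cells of a type and less RNA per cell cannot be told apart.

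**Figure D1:**
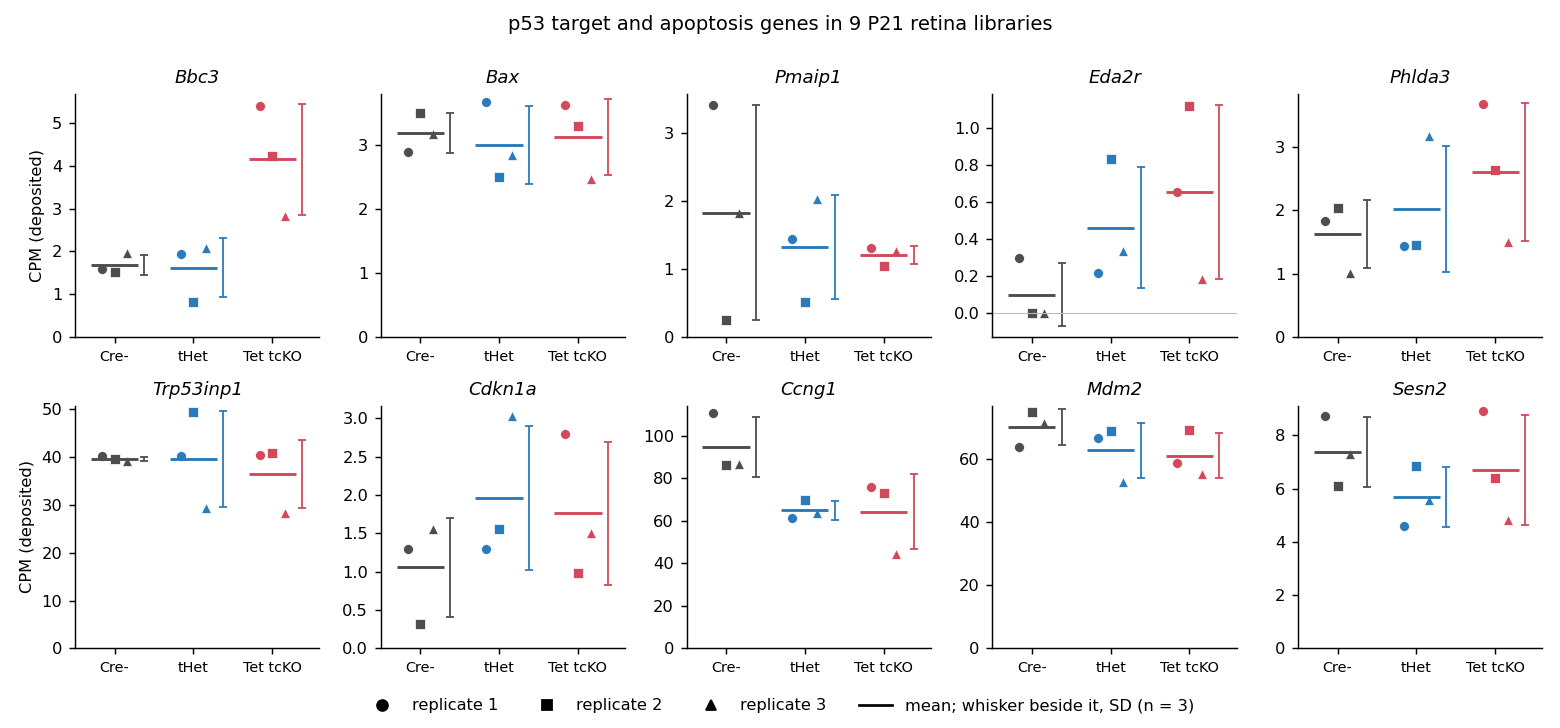
Deposited CPM of each of the 10 genes (vertical axes, starting at or just below 0) in the 3 Cre-, 3 tHet and 3 Tet tcKO libraries. Points are libraries with the replicate number as the shape, horizontal lines are means and the whiskers beside them are the SD. The 3 Tet tcKO points of Bbc3 (2.83 to 5.40 CPM) sit above all 6 others, the 3 Cre- points of Ccng1 (86.3 to 111 CPM) sit above all 6 others, and the genotypes overlap in the other 8 genes.

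Bbc3 (ENSMUSG00000002083.13, chromosome 7, 16308393 to 16318205, plus strand) encodes PUMA, a BH3-only protein that binds the anti-apoptotic members of the BCL2 family and so frees BAX and BAK. Its CPM was 1.59, 1.53 and 1.96 in Cre- replicates 1 to 3, 1.94, 0.831 and 2.08 in tHet, and 5.40, 4.22 and 2.83 in Tet tcKO. Every Tet tcKO library lay above every library of the other genotypes, and replicate 3, the library rich in ribosomal RNA, was the lowest of the 3. The reads behind these values were 27, 24 and 29 in Cre-, 27, 8 and 44 in tHet, and 91, 64 and 47 in Tet tcKO. Mean CPM was 2.45 times that of Cre- and 2.56 times that of tHet. The log2FC was 1.05 ± 0.35 (SE, 95% confidence interval 0.32 to 1.78) against Cre-, and its limma adjusted p of 0.087 missed the threshold. Against tHet it was 1.15 ± 0.35 (0.42 to 1.89), with a limma adjusted p of 0.058. Both sat on the log2(CPM + 0.5) scale, which understates the change of a gene at this level. The tHet and Cre- libraries overlapped, with a log2FC of -0.10 (-0.84 to 0.63).

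Bbc3 was called under none of 21 alternatives, and whether it passed an adjusted p under 0.05 depended on the scaling and on the test. It passed in 3 of the 21 against Cre- and in 10 of the 21 against tHet. With CT010467.1 left out of the library totals, Tet tcKO replicate 3 rose to 3.97 CPM, the log2FC became 1.19 and 1.28 against Cre- and tHet, and the limma adjusted p 0.0289 and 0.0233. That scaling moved the median log2FC of all tested genes to 0.14 and 0.07, so relative to that median the differences were smaller by those amounts. DESeq2 gave adjusted p values of 0.0181 and 0.0161, and edgeR's quasi-likelihood test 0.0618 and 0.0608. Over 21 alternatives the log2FC stayed above 0 in both comparisons, from 0.86 to 1.27 against Cre- and from 0.85 to 1.38 against tHet. The adjusted p ran from 0.0181 to 0.362 and from 0.0161 to 0.301. The highest values in both comparisons came without Tet tcKO replicate 1, the library with the most Bbc3 reads.

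The other BCL2 family genes of the set did not separate the genotypes. Bax (ENSMUSG00000003873.11, chromosome 7, 45461697 to 45466898, minus strand), the pore-forming protein of the mitochondrial outer membrane, read 2.88, 3.50 and 3.17 CPM in Cre-, 3.67, 2.49 and 2.84 in tHet, and 3.62, 3.29 and 2.47 in Tet tcKO. All 3 genotypes overlapped, and the log2FC of Tet tcKO was -0.03 against Cre- (95% confidence interval -0.68 to 0.62) and 0.05 against tHet (-0.60 to 0.70). An exon of Bax overlaps one of Gm45808 on the same strand, so reads there cannot be assigned to Bax alone. Pmaip1 (ENSMUSG00000024521.8, chromosome 18, 66458533 to 66465565, plus strand) encodes NOXA, a BH3-only protein that binds MCL1. It read 3.41, 0.254 and 1.82 CPM in Cre-, 1.44, 0.519 and 2.04 in tHet, and 1.31, 1.05 and 1.26 in Tet tcKO. The spread within Cre- (58, 4 and 27 reads) was wider than any difference between genotypes, and the log2FC of -0.16 against Cre- had an interval of -1.14 to 0.82.

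The other pro-death genes overlapped between all genotypes. Eda2r (ENSMUSG00000034457.10, chromosome X, 97333840 to 97377216, minus strand), the receptor for the A2 isoform of ectodysplasin, had 5, 0 and 0 reads in Cre-, 3, 8 and 7 in tHet, and 11, 17 and 3 in Tet tcKO. Values at or below 3 reads (0.142 to 0.312 CPM, depending on the library) are no more than a detection limit that covers counting error only, and 4 of the 9 libraries were there. The log2FC of Tet tcKO against Cre- was 0.89 ± 0.36 (0.14 to 1.65, limma adjusted p = 0.19) and moved between 0.56 and 2.49 with the pseudocount, filter and test. Phlda3 (ENSMUSG00000041801.5, chromosome 1, 135766119 to 135769136, plus strand), which encodes a pleckstrin-homology protein that keeps AKT from the membrane, read 1.82, 2.04 and 1.01 CPM in Cre-, 1.44, 1.45 and 3.17 in tHet, and 3.68, 2.64 and 1.51 in Tet tcKO. Its log2FC was 0.52 ± 0.37 against Cre- (limma adjusted p = 0.611) and 0.31 ± 0.37 against tHet. Trp53inp1 (ENSMUSG00000028211.11, chromosome 4, 11156431 to 11174379, plus strand), a nuclear protein that assists p53 and autophagy, read 40.1, 39.5 and 39.2 CPM in Cre-, 40.2, 49.4 and 29.4 in tHet, and 40.4, 40.8 and 28.3 in Tet tcKO. The lowest values of tHet and Tet tcKO were both those of replicate 3. Without CT010467.1 in the totals the Tet tcKO value of 28.3 became 39.7 CPM, whereas the tHet value of 29.4 became 30.5 CPM and was then the lowest of the 9. Its log2FC against Cre- was -0.14 (-0.62 to 0.35).

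Ccng1 was the other gene whose libraries separated 2 genotypes, and here the Cre- libraries were the ones apart. Ccng1 (ENSMUSG00000020326.7, chromosome 11, 40748552 to 40755311, minus strand) encodes cyclin G1, which recruits a phosphatase to Mdm2. Its CPM was 111, 86.3 and 86.9 in Cre-, 61.1, 69.9 and 63.8 in tHet, and 75.8, 73.0 and 44.3 in Tet tcKO. Every tHet and every Tet tcKO library lay below every Cre- library, while tHet and Tet tcKO overlapped. The log2FC was -0.58 ± 0.23 in Tet tcKO against Cre- (-1.06 to -0.11, limma adjusted p = 0.166) and -0.53 ± 0.23 in tHet against Cre- (-1.01 to -0.06, limma adjusted p = 0.9998). Against tHet, Tet tcKO differed by -0.05 (-0.53 to 0.42). In Tet tcKO against Cre- the log2FC stayed below 0 in 21 alternatives, from -0.72 to -0.34, and passed an adjusted p under 0.05 with upper-quartile scaling (0.0294) and with DESeq2 (0.0338). Libraries that do not overlap, in either direction, were seen for 2 of the 10 genes in Tet tcKO against Cre- (Bbc3 and Ccng1) and for 19.6% of the tested genes. Against tHet this held for 1 of the 10 (Bbc3) and 17% of the tested genes, and in tHet against Cre- for 1 of the 10 (Ccng1) and 11.1%.

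Cdkn1a, Mdm2 and Sesn2 overlapped between all genotypes. Cdkn1a (ENSMUSG00000023067.14, chromosome 17, 29090976 to 29100727, plus strand) encodes p21, the inhibitor of cyclin-dependent kinases that is the best known p53 target. It read 1.30, 0.318 and 1.55 CPM in Cre-, 1.30, 1.56 and 3.03 in tHet, and 2.79, 0.988 and 1.51 in Tet tcKO, so that the highest library was a tHet one. The log2FC was 0.57 ± 0.41 against Cre- (-0.28 to 1.42, limma adjusted p = 0.609) and -0.14 ± 0.41 against tHet (-0.99 to 0.71). An exon of Cdkn1a overlaps AC167363.2 on the opposite strand, and the strand setting of the counting is not given in the sources used here. Mdm2 (ENSMUSG00000020184.15, chromosome 10, 117688875 to 117710758, minus strand), which marks p53 for degradation and is raised by it, read 63.8, 74.8 and 71.4 CPM in Cre-, 66.6, 68.8 and 52.7 in tHet, and 58.8, 69 and 55.1 in Tet tcKO. Its intervals were among the narrowest of the set, with a log2FC of -0.20 against Cre- (-0.63 to 0.23) and -0.04 against tHet (-0.46 to 0.39). Sesn2 (ENSMUSG00000028893.8, chromosome 4, 132492032 to 132510501, minus strand), a leucine sensor that restrains mTORC1, read 8.71, 6.11 and 7.29 CPM in Cre-, 4.61, 6.86 and 5.59 in tHet, and 8.91, 6.39 and 4.82 in Tet tcKO. Its log2FC was -0.15 against Cre- (-0.78 to 0.47) and 0.20 against tHet (-0.43 to 0.83).

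**Figure D2:**
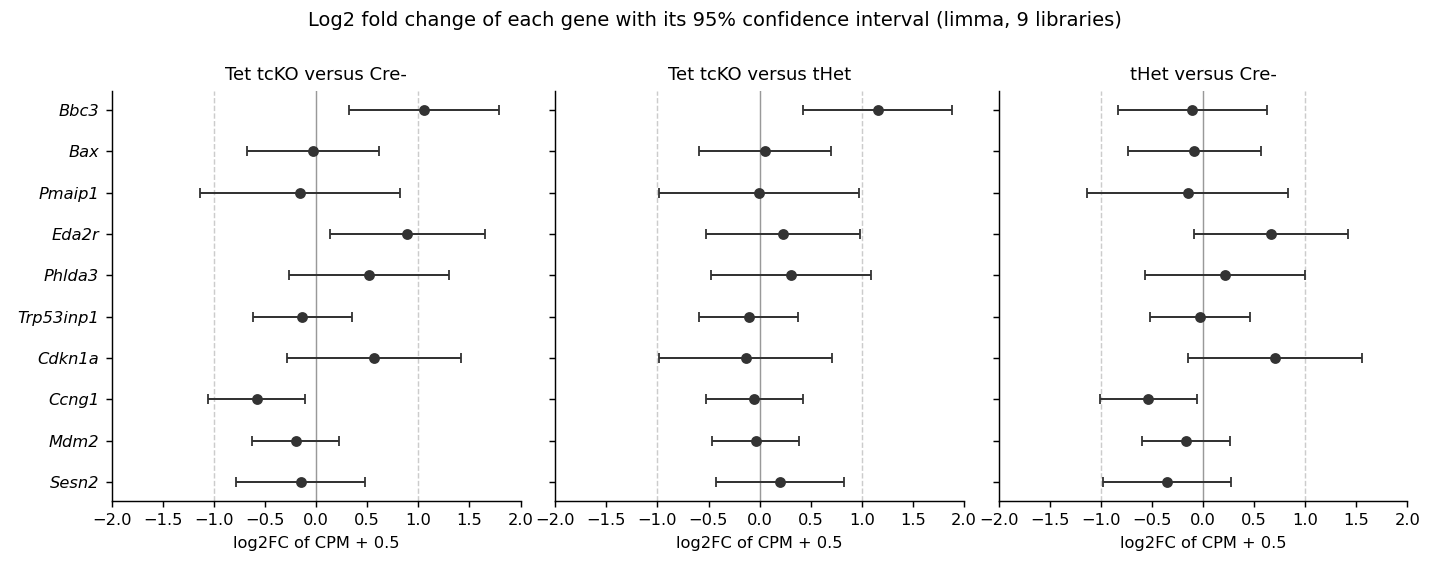
Log2FC of each of the 10 genes on the log2(CPM + 0.5) scale (horizontal axes) in the 3 comparisons, as points with 95% confidence intervals from limma over 9 libraries, with dashed lines at a log2FC of 1 in either direction. The intervals exclude 0 for Bbc3 (0.32 to 1.78), Eda2r (0.14 to 1.65) and Ccng1 (-1.06 to -0.11) in Tet tcKO against Cre-, for Bbc3 (0.42 to 1.89) against tHet, and for Ccng1 (-1.01 to -0.06) in tHet against Cre-, before adjustment for multiple tests. Eda2r entered the test only through the libraries in which it was high.

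The 10 genes did not all lie on 1 side of 0 in any comparison. In Tet tcKO against Cre-, 4 of the 10 had a log2FC above 0, against 50.1% of the tested genes, with a median of -0.08 beside 0.00 over all tested genes. Against tHet, 5 of the 10 were above 0, against 44.3% of the tested genes, with a median of 0.02 beside -0.06. In tHet against Cre-, 3 of the 10 were above 0, against 58.2%, with a median of -0.09 beside 0.06. Those counts moved with the scaling. With CT010467.1 left out of the totals, 6 of the 10 were above 0 against Cre-, as were 65.7% of all genes tested there, and 9 of the 10 against tHet, with 56.8% of all genes. With TMM scaling 4 of the 10 were above 0 against Cre- (51.3% of all genes) and 8 of the 10 against tHet (50.4% of all genes). Replicate 3 was the lowest Tet tcKO library for 8 of the 10 genes as deposited, for 5 without CT010467.1 in the totals and for 4 with TMM scaling.

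**Figure D3:**
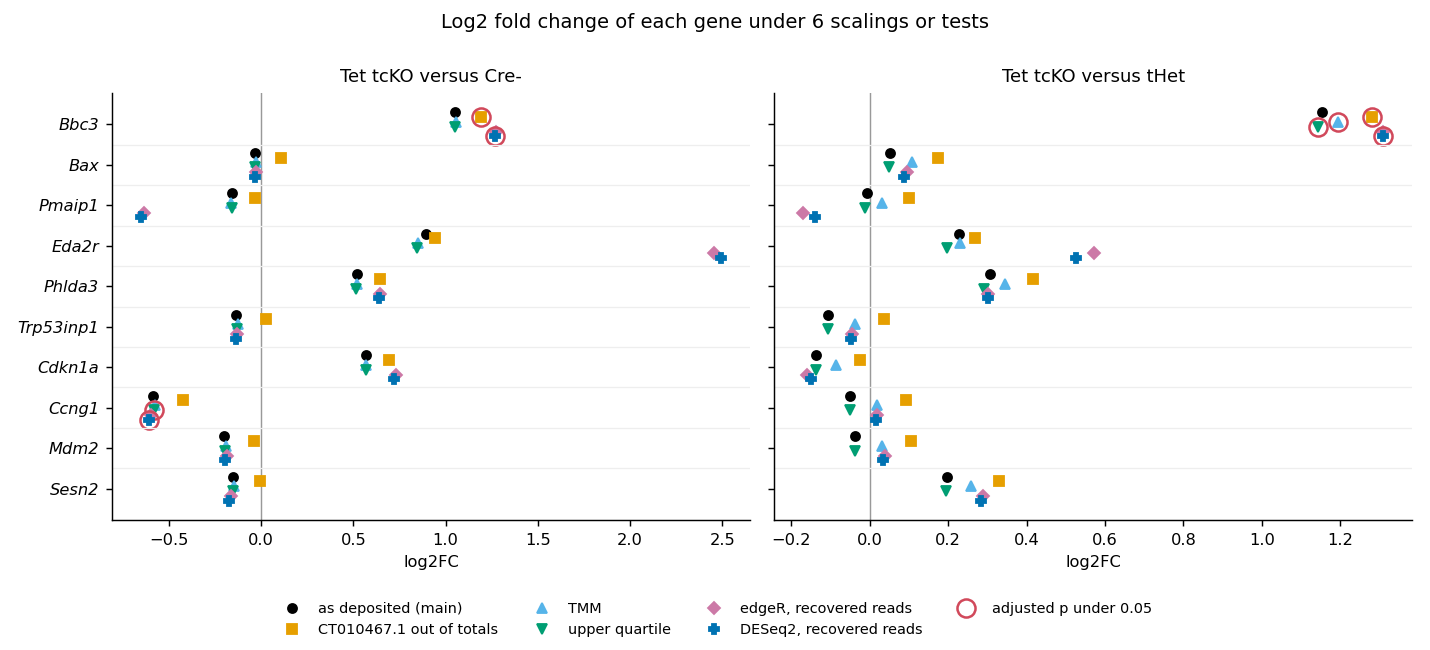
Log2FC of each of the 10 genes (horizontal axes, ranges differ between panels) in Tet tcKO against Cre- and against tHet under 6 scalings or tests, shown by symbol, with a red ring where the adjusted p was under 0.05. Bbc3 lies between 1.05 and 1.27 against Cre- and between 1.14 and 1.31 against tHet in all 6, whereas Trp53inp1 and Bax cross 0 against Cre- (0.03 and 0.11 without CT010467.1 in the totals) and Mdm2, Ccng1, Trp53inp1 and Pmaip1 cross it against tHet.

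The wider pathway was read from 7 lists of genes, 99 in all, of which 91 were tested. For comparison, 6.5% of all tested genes passed a limma adjusted p under 0.05 against Cre- and 5.95% against tHet. At an unadjusted p under 0.05 against Cre-, 8.59% of all tested genes were higher and 7.47% lower. Of 22 other p53 targets, 20 were tested (Gdf15 and Trp73 were not), and 0 passed an adjusted p under 0.05 against Cre- by limma, with 1 higher and 3 lower at an unadjusted p under 0.05 and up to 2 in either direction under the alternatives. Their median log2FC was 0.10. Against tHet, 2 of the 20 passed. Gadd45a, a DNA damage response gene, was lower at 12 ± 1.33 CPM (SD, n = 3) against 21.7 ± 3.74 CPM (log2FC -0.82 ± 0.24, limma adjusted p = 0.0489), no longer past that threshold in 13 of the 21 alternatives. Btg2, an antiproliferative gene, was higher at 89.8 ± 12.5 CPM against 53.4 ± 14.7 CPM (log2FC 0.77 ± 0.22, limma adjusted p = 0.0422), no longer past it in 7 of the 21. Against Cre- the log2FC was -0.80 for Gadd45a and 0.51 for Btg2 (limma adjusted p = 0.0523 and 0.235). Gadd45a passed there in 6 of the 21 alternatives and Btg2 in 1. The libraries of the 2 genotypes did not overlap for either gene, as for 19.6% of all tested genes. Of p53 itself and 9 regulators, 9 were tested (Cdkn2a was not) and 0 passed in either comparison, with 0 at an unadjusted p under 0.05 and 0 under each alternative. Trp53 read 24.0 ± 11.4, 32.2 ± 16.7 and 30.9 ± 7.25 CPM across Cre-, tHet and Tet tcKO. Trp53bp1, a DNA break sensor, read 135 ± 24.4, 166 ± 24.9 and 171 ± 19.4 CPM in the same order.

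Other BCL2 family genes and the death receptors came next. Of 12 other BCL2 family genes 11 were tested (Bik was not) and 0 passed an adjusted p under 0.05, with 2 higher at an unadjusted p under 0.05 against Cre- (8.59% of all tested genes). Those 2 were Bmf and Hrk, which encode BH3-only proteins. The log2FC of other BH3-only genes on the list was -0.24 for Bcl2l11, 0.35 for Bad and 0.55 for Bid. Bmf read 7.11 ± 3.13 CPM in Cre- and 14.4 ± 6.25 in Tet tcKO (log2FC 0.99 ± 0.37, limma adjusted p = 0.134), and Hrk 3.84 ± 0.782 and 7.37 ± 2.74 CPM (log2FC 0.82 ± 0.31, limma adjusted p = 0.156). In tHet, Bmf read 9.44 ± 3.85 CPM and Hrk 6.00 ± 0.942 CPM, and every tHet library of Hrk lay above every Cre- library, as for 5.78% of all tested genes. The log2FC of Tet tcKO against tHet was 0.58 for Bmf and 0.23 for Hrk (limma adjusted p = 0.469 and 0.798). Against Cre-, Bmf passed an adjusted p under 0.05 in 2 of the 21 alternatives and Hrk in 4. The list's median log2FC was 0.26 against Cre- beside 0.00 over all tested genes. Of 11 death receptor and ectodysplasin genes 9 were tested (Edar and Edaradd were not) and 0 passed by limma, with 1 higher at an unadjusted p under 0.05 against Cre- (8.59% of all tested genes). That gene was Tnfrsf1a, the TNF receptor, at 5.34 ± 1.26 CPM in Tet tcKO, 4.09 ± 0.785 CPM in tHet and 2.29 ± 0.659 CPM in Cre- (log2FC 1.07 ± 0.32 against Cre-, limma adjusted p = 0.0525), and against Cre- it passed under 12 of the 21 alternatives. In Tet tcKO against tHet its log2FC was 0.34 (limma adjusted p = 0.677), the libraries overlapped, and it passed under 0 of the 21. Every tHet library of Tnfrsf1a lay above every Cre- library, as for 5.78% of all tested genes. Ngfr, the p75 neurotrophin receptor, read 42.0 ± 9.10 CPM in Cre- and 34.3 ± 12.2 in Tet tcKO.

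Stress genes next to Sesn2 moved in both directions. The cell cycle genes next to Cdkn1a that passed a limma adjusted p under 0.05 were all higher in Tet tcKO. Of 12 genes of the ATF4 and amino acid stress response 2 passed an adjusted p under 0.05 against Cre-, where 6.5% of all tested genes did. Slc7a11, the cystine transporter, rose from 3.99 ± 0.958 to 14.2 ± 4.52 CPM (log2FC 1.69 ± 0.32, limma adjusted p = 0.00185), with tHet between them at 8.66 ± 3.01 CPM. Slc7a11 did not pass in Tet tcKO against tHet (log2FC 0.68, limma adjusted p = 0.273), where the libraries overlapped. Every tHet library of Slc7a11 lay above every Cre- library, as for 5.78% of all tested genes. Ddit4, a p53- and ATF4-responsive inhibitor of mTORC1 like Sesn2, fell from 37.3 ± 3.59 CPM in Cre- and 38 ± 4.93 in tHet to 19.6 ± 1.52 CPM (log2FC -0.91 ± 0.21, limma adjusted p = 0.0102 against Cre-, and -0.93 ± 0.21, adjusted p = 0.00982 against tHet). Ddit4 no longer passed against Cre- without Cre- replicate 3 or Tet tcKO replicate 1. Of 17 cyclin-dependent kinase inhibitor and cell cycle genes 15 were tested (Cdk1 and Ccnb1 were not), and 4 were higher and 0 lower past an adjusted p under 0.05 against Cre- (3.53% and 2.98% of all tested genes). None of the 4 was an inhibitor like Cdkn1a. Cdk6, a kinase of G1 phase, rose from 8.25 ± 0.952 to 45.4 ± 7.87 CPM (log2FC 2.38 ± 0.26, limma adjusted p = 5.55e-06) and Ccnd2, its D-type cyclin, from 3.59 ± 0.719 to 15.9 ± 6.41 CPM (log2FC 1.94 ± 0.33). The proliferation markers Mki67 (0.380 ± 0.0260 to 5.55 ± 1.98 CPM) and Top2a (0.278 ± 0.177 to 2.43 ± 0.741 CPM) rose from near the detection limit. In tHet, Cdk6, Ccnd2, Mki67 and Top2a read 11.8 ± 4.00, 9.88 ± 3.88, 1.64 ± 0.680 and 0.663 ± 0.139 CPM. Every tHet library of Ccnd2, Mki67 and Top2a lay above every Cre- library, as for 5.78% of all tested genes, and Top2a rested there on 30 reads in tHet and 13 in Cre-. Ccnd2 did not pass in Tet tcKO against tHet (log2FC 0.65, limma adjusted p = 0.324). Cdk6, Mki67 and Top2a also passed against tHet, with log2FC of 1.93, 1.5 and 1.31. Against tHet, Mki67 no longer passed in 3 of the 21 alternatives and Top2a in 4, in both cases including those without tHet replicate 1 and without Tet tcKO replicate 1.

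**Figure D4:**
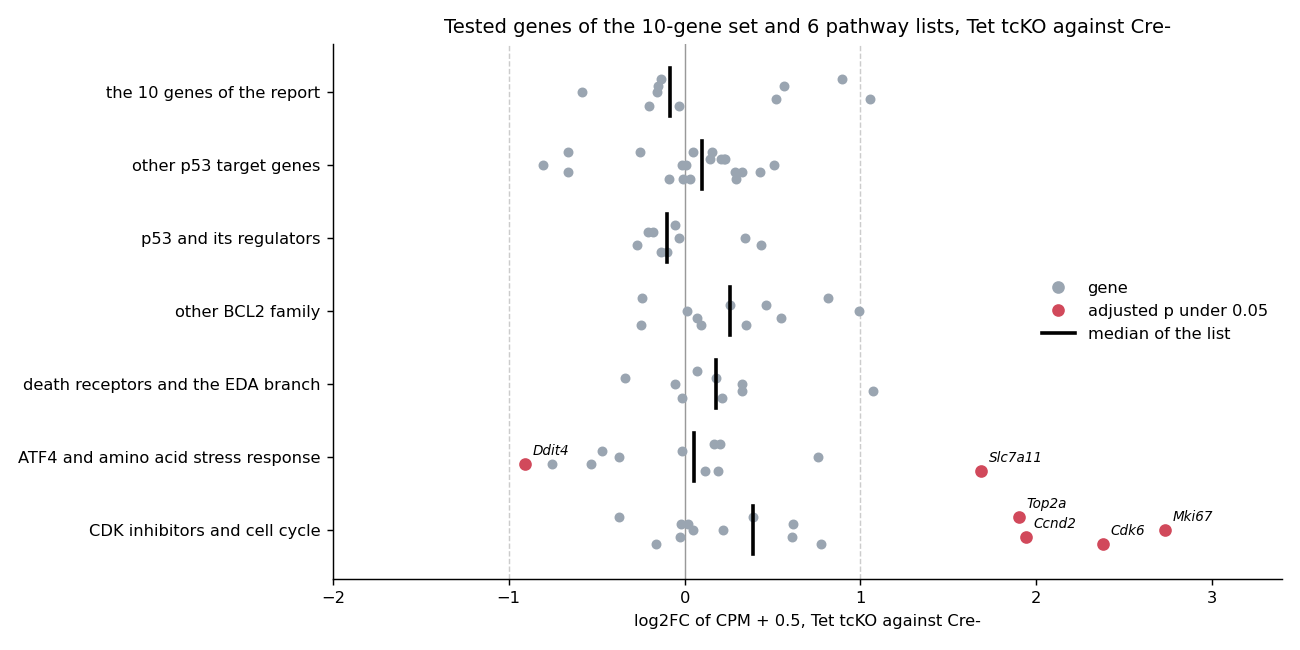
Log2FC of Tet tcKO against Cre- on the log2(CPM + 0.5) scale (horizontal axis) for the tested genes of 6 lists, with the 10 genes described here in the top row, medians as black bars and genes past a limma adjusted p under 0.05 in red with their names. The top row spans -0.58 to 1.05 with no red point, and the red points are Ddit4, Slc7a11, Top2a, Ccnd2, Cdk6 and Mki67.

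Cell type markers moved between the same libraries. The summed CPM of 7 rod markers was 29988 to 36171 in Cre-, 26052 to 32504 in tHet and 3217 to 10541 in Tet tcKO, with 6 of the 7 lower past an adjusted p under 0.05 against Cre-. The sum of 5 cone markers was 383 to 499 CPM in Cre-, 455 to 475 in tHet and 982 to 1466 in Tet tcKO, with 4 of the 5 higher. The sum of 10 microglia markers was 22.1 to 32.1 CPM in Cre-, 30.2 to 42.7 in tHet and 36.3 to 70.6 in Tet tcKO, with 1 of the 10 higher past that threshold. Within Tet tcKO, replicate 1 had the most Bbc3 (5.40 CPM), the highest microglia and cone sums (70.6 and 1466 CPM) and the lowest rod sum (3217 CPM). That order was not particular to Bbc3, since Cdkn1a, Ccng1, Phlda3, Bax, Pmaip1 and Sesn2 were also highest in replicate 1 of Tet tcKO. Mdm2, Trp53inp1 and Eda2r were highest in its replicate 2. These are deposited CPM, in which replicate 3 is lowered by its ribosomal RNA reads. All 4 ciliary body markers had a log2FC above 0 in Tet tcKO against Cre-. Against tHet, Col9a1 (log2FC 0.94) and Wfdc1 (0.31) were above 0 and Optc (-0.51) and Otx1 (-0.23) below it. The 4 markers summed to 36.8 to 61.0 CPM in Cre-, 156 to 232 in tHet and 246 to 310 in Tet tcKO, an order with both Cre-positive genotypes on one side, as for Ccng1 and in the opposite direction. The 5 vascular markers summed to 102 to 149, 117 to 139 and 38.6 to 77.3 CPM in the same order of genotypes, and that difference was one of Flt1, which fell from 116 ± 27.0 to 32.9 ± 17.3 CPM against Cre- (limma adjusted p = 0.00016), while 3 of the 5 had a log2FC above 0. The 4 retinal pigment epithelium markers summed to 27.9 to 96.0, 70.2 to 87.3 and 14.6 to 21.5 CPM. Best1 and Pmel had a log2FC above 0 (0.31 and 0.17), while the other 2 were lower past an adjusted p under 0.05 against Cre-. The 4 Müller glia markers summed to 1606 to 2141, 1484 to 1789 and 1058 to 1631 CPM. Slc1a3 and Dkk3 had a log2FC above 0 (0.12 and 0.55), while Glul and Rlbp1 were lower past that threshold. The sums of the 4 bipolar markers overlapped, at 1339 to 1527, 927 to 1556 and 825 to 1475 CPM, but single members moved in opposite directions, with Trpm1 (log2FC -2.16) and Prkca (-1.34) lower and Cabp5 (1.76) higher past it. The 4 amacrine markers summed to 264 to 307, 219 to 262 and 157 to 291 CPM, with 1 of the 4 lower past that threshold and Tfap2a above 0 (log2FC 0.45). Ganglion cell, lens and red blood cell lists ranged over 561 to 2034, 3.80 to 39.7 and 13.4 to 43.6 CPM across all libraries, with 0, 0 and 2 markers lower and 0 higher past that threshold. No marker was at 0 in every library, and Crygs and Lim2 of the lens list were at 0 in some. The part of these cell types in the values of Bbc3, Ccng1 or the other genes was not tested.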

How the data were processed

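The 9 P21 retina libraries were made with the SMARTer Stranded Total RNA kit after ribosomal RNA removal and sequenced in 1 pool. Per the submitters' processing notes, the tools included Trim Galore 0.6.7, STAR 2.7.0f, SAMtools 1.9, HTSeq 0.11.2, edgeR 4.2.2 and R 4.4.1, with the mm10 build. The annotation release and strand setting are not given in the sources used here. The authors deposited CPM per gene, scaled to all reads on genes, beside columns of their own fold changes and tests, which were not used. In each library 100% of the CPM values were whole multiples of 1 read within 0.05 read, so reads were recovered exactly. The deposited table held no sample column without a label.

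Of 55487 genes, the 21330 that reached 0.5 CPM in 3 or more of the 9 libraries were tested with limma 3.58.1 on log2(CPM + 0.5), with an intensity trend, 1 mean per genotype and Benjamini-Hochberg adjustment over all tested genes. A gene was called when its log2FC was 1 or more in size and its adjusted p was below 0.01. The 21 alternatives comprised a pseudocount of 0.1 or 1, omission of the filter or a filter at 1 CPM, TMM and upper-quartile scaling, CT010467.1 left out of the totals, edgeR 4.0.16 and DESeq2 1.42.0 on recovered reads, a replicate block, fits of 6 libraries, and leaving out each library. One of them, which left out CT010467.1 together with Tet tcKO replicate 3, was chosen after seeing the data. The fitting functions were tested on simulated data. The result of 1 of the 7 pathway lists is not reported here beyond its share in the totals. Members and lists were chosen with earlier results of these data known. Named were the 10 genes, each list gene past an adjusted p under 0.05 in Tet tcKO against Cre- or tHet (with none against Cre- or tHet, the 2 with the smallest adjusted p), and the 5 genes most correlated with the member of smallest adjusted p. Of the IDs, 54435 of 55487 matched GENCODE vM21 (GRCm38), which gave positions and exon lengths. Promoter sequences were those of RefSeq.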

Additional observations from a re-analysis of the deposited data

How the results depend on the processing

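None of the 10 genes was called in any comparison under any of the 21 alternatives. The count past an adjusted p under 0.05, 0 as reported, became 1 in Tet tcKO against Cre- with upper-quartile scaling (Ccng1, 0.0294) and with CT010467.1 left out of the totals (Bbc3, 0.0289) and 2 with DESeq2 (Bbc3, 0.0181, and Ccng1, 0.0338). Against tHet it became 1 (Bbc3) with a pseudocount of 1, TMM, upper-quartile scaling, CT010467.1 left out, DESeq2 and only the 6 libraries compared, and 0 to 1 when single libraries were left out (1 without Cre- replicate 1, Cre- replicate 2 or tHet replicate 3). It stayed at 0 in tHet against Cre-.

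The replicate numbers were not taken to pair the libraries, because nothing in the labels ties them and not every same-number pair deviated together. Deviations from the genotype means correlated at -0.35 to 0.56 over 9 same-number pairs, with 5 of the 9 over 0.1, and 6 of 9 libraries correlated best with their own number. With the replicate number as a block, genes called became 1127, 1125 and 40 in Tet tcKO against Cre-, against tHet and in tHet against Cre-. Members past an adjusted p under 0.05 became 1, 1 and 0 (Bbc3 both times, adjusted p = 0.0389 and 0.0204), and list genes past it 11, 7 and 1.

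All tested genes called, 768 against Cre-, became 417 with no filter, 410 with CT010467.1 and Tet tcKO replicate 3 left out, and 331 to 982 with single libraries left out. Against tHet, 640 became 351 with no filter, 1046 with DESeq2, 1028 with 6 libraries, 341 with CT010467.1 and Tet tcKO replicate 3 left out, and 252 to 973 with single libraries left out. In tHet against Cre-, 9 became 1 with no filter, TMM, upper-quartile scaling, CT010467.1 left out, edgeR and 6 libraries, 38 with DESeq2, 0 with CT010467.1 and Tet tcKO replicate 3 left out, and 0 to 17 with single libraries left out. Calls against Cre- were 434 higher and 334 lower as deposited and 613 and 222 with CT010467.1 left out. Against tHet they were 297 and 343, and 427 and 215. List genes past an adjusted p under 0.05, 7 of 91 against Cre- (beside 6.5% of all tested genes), became 11 with TMM, 13 with upper-quartile scaling, 14 with CT010467.1 left out, 12 with edgeR and 15 with DESeq2. Against tHet, 7 (beside 5.95% of all tested genes) became 4 with no filter, 13 with CT010467.1 left out and 14 with DESeq2, and 1 to 7 with single libraries left out. In tHet against Cre-, 0 became 2 with DESeq2.

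Small differences changed sign. Against Cre-, Trp53inp1 became 0.025 and 0.036 and Bax 0.106 and 0.105 with CT010467.1 left out, without and with omission of Tet tcKO replicate 3, and Sesn2 0.046 with both left out. Against tHet, Mdm2 became 0.032 with TMM, 0.106 with CT010467.1 left out, 0.038 with edgeR, 0.033 with DESeq2 and 0.014 with CT010467.1 and Tet tcKO replicate 3 left out, and Ccng1 0.018, 0.092, 0.019, 0.015 and 0.179 in that order. Trp53inp1 became 0.036 and 0.047 with CT010467.1 left out, without and with that omission. Pmaip1 became 0.040 with a pseudocount of 0.1, 0.030 with TMM and 0.101 with CT010467.1 left out, and Ngfr 0.18 with CT010467.1 and Tet tcKO replicate 3 left out. With single libraries left out, log2FC against Cre- ran from -0.22 to 0.036 for Trp53inp1, -0.13 to 0.11 for Bax, -0.82 to 0.36 for Pmaip1 and -0.37 to 0.046 for Sesn2. Against tHet it ran from -0.45 to 0.16 for Cdkn1a, -0.16 to 0.034 for Mdm2, -0.19 to 0.20 for Ccng1, -0.30 to 0.067 for Trp53inp1, -0.055 to 0.19 for Bax, -0.38 to 0.28 for Pmaip1, -0.015 to 0.40 for Sesn2, -0.084 to 0.14 for Trp53bp1, -0.45 to 0.39 for Trp53, -0.035 to 0.45 for Hrk and -0.31 to 0.20 for Ngfr. In tHet against Cre- it ran from -0.20 to 0.17 for Trp53inp1, -0.091 to 0.37 for Phlda3, -0.28 to 0.20 for Bbc3, -0.22 to 0.022 for Bax and -0.82 to 0.37 for Pmaip1. The cause of these changes was not tested beyond the construction of each alternative. Depth limits Eda2r, Pmaip1, Cdkn1a and Bbc3 most, with 0 to 91 reads per library, and Eda2r could not be fitted where a filter removed it.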

Other observations

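Over the 9 libraries, the 5 of 17429 genes of at least 1 CPM whose log2(CPM + 0.5) followed that of Bbc3 most closely were Myo1e, an unconventional myosin (Pearson r = 0.982), Isoc2a (0.977), Ldb1, a cofactor of LIM-domain transcription factors (0.977), Chst12, a chondroitin sulfotransferase (0.975), and Fbll1, a fibrillarin relative (0.973). These are the highest of many values and describe the libraries, which share genotype and depth. Across Cre-, tHet and Tet tcKO, Myo1e read 8.11 ± 1.06, 7.87 ± 1.44 and 13.6 ± 3.19 CPM (SD, n = 3 each). Ldb1 read 91.0 ± 6.51, 91.0 ± 10.4 and 141 ± 17.9 CPM, and Isoc2a 6.47 ± 0.629, 6.09 ± 1.89 and 12.8 ± 3.72 CPM in the same order. None of the 5 passed an adjusted p under 0.05 against Cre- by limma. Their adjusted p ran from 0.077 for Ldb1 to 0.337 for Chst12.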
